A study of Homo sapiens with 12 samples.

Results

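The clusters described here are those on the random and unplaced contigs of the human genome, which are assembled stretches with no fixed place on a chromosome. They were chosen by position alone: every cluster whose sequence name was neither one of the numbered chromosomes, X, Y or M nor an alternate or fix contig was kept. This gave 2774 of the 102250 clusters of 12 libraries, or 2.71%, on 26 of the 169 contigs of this kind in hg38. Of these, 2516 lay on 3 contigs that hold ribosomal DNA and 258 lay on 23 other contigs.

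The study used PAR-CLIP, in which RNA that carries a photoreactive nucleoside is crosslinked to bound protein and pulled down with it, in wildtype HepG2 cells, a human liver cancer line. All cells were fed 4-thiouridine (4SU), the photoreactive nucleoside, and crosslinked with long-wave UV light, and the lysates were cut with RNase T1, which cleaves after G. Antibodies then pulled down IGF2BP1, IGF2BP2 or IGF2BP3, the family of RNA-binding proteins that the study tests as readers of internal 7-methylguanosine (m7G), or METTL1, the methyltransferase that writes m7G, or its partner WDR4. There were 2 libraries each of IGF2BP1, IGF2BP2, METTL1 and WDR4 and 4 of IGF2BP3, of which 2 carry the label bio2. Neither an input library nor an unrelated protein stands among them, so the level of rRNA in the lysate cannot be told apart from binding. A cluster is an interval with crosslink-induced T-to-C changes, listed with its position and strand and with no read count.

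Ribosomal RNA is transcribed by RNA polymerase I in the nucleolus as a single 45S precursor. The precursor holds the 18S, 5.8S and 28S rRNAs, and between and around them the external transcribed spacers (5'ETS and 3'ETS) and the internal transcribed spacers (ITS1 and ITS2), which are removed and degraded during ribosome assembly. The genes stand in tandem repeats on the short arms of the acrocentric chromosomes, and hg38 holds only some of the repeats, part of them on unplaced contigs.

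In hg38 the 45S transcript RNA45SN5 of RefSeq, 13357 nt long, lay at chrUn_GL000220v1:105424-118780 on the plus strand. Its 18S, RNA18SN5, took positions 109078 to 110946, 5.8S took 112024 to 112180 and 28S took 113348 to 118417. A second copy on the same contig was cut off by the contig's end after 12407 nt of the transcript, and chr22_KI270733v1_random held 1 full copy and 1 cut at the same base, with identities of 99.7% to the first. Positions on all 4 copies were carried over to the first, which is called the unit below.

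Under the clusters of all 12 libraries lay 27 intervals of the unit, 10 to 82 nt long and 1174 bases in all. The 4 intervals in 18S are printed with those of 5.8S and the 5 longest of 28S, because they are the stretches that every library held. Capitals mark the bases covered in all 12 libraries, with 5 flanking bases on each side in lower case. All are 5' to 3' on the plus strand of chrUn_GL000220v1 in hg38.
18S, chrUn_GL000220v1:109181-109227: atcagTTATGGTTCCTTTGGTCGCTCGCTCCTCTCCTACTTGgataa
18S, chrUn_GL000220v1:109746-109790: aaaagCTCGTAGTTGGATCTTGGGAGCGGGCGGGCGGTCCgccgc
18S, chrUn_GL000220v1:109794-109852: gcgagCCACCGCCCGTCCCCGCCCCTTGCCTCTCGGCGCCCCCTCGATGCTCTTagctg
18S, chrUn_GL000220v1:110837-110896: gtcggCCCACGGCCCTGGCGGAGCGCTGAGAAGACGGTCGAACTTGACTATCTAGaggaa
5.8S, chrUn_GL000220v1:112021-112061: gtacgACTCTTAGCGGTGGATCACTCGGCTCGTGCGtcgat
28S, chrUn_GL000220v1:113774-113849: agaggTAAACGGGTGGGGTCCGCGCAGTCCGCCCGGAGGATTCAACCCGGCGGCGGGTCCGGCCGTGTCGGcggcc
28S, chrUn_GL000220v1:114276-114346: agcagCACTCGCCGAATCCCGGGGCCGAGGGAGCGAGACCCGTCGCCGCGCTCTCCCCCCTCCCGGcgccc
28S, chrUn_GL000220v1:114493-114571: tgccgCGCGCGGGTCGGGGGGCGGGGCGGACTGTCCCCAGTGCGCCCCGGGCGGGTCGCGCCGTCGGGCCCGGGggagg
28S, chrUn_GL000220v1:116364-116455: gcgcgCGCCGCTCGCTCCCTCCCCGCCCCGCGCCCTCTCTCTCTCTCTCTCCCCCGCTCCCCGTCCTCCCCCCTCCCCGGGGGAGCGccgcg
28S, chrUn_GL000220v1:116567-116635: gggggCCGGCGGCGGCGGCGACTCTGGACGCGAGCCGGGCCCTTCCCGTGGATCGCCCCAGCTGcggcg

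Among intervals of at least 10 nt, 3 lay under a cluster in all 4 METTL1 and WDR4 libraries and in none of the 8 IGF2BP libraries, and all of them were in the 5'ETS. They are printed because they set these libraries apart on the unit. Capitals mark the bases that those 4 libraries shared.
5'ETS, chrUn_GL000220v1:106636-106667: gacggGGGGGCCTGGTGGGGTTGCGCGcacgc
5'ETS, chrUn_GL000220v1:107112-107150: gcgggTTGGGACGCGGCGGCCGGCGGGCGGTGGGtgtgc
5'ETS, chrUn_GL000220v1:107853-107874: ttccgGGGGTCGGCCTGcggcg

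The IGF2BP3 bio2 libraries stood apart from the other 10 in width and cover of rRNA, and results that turn on them are also given without them. The number of clusters per library ran from 4581 to 15701, and contig clusters from 122 to 313. By the methods, plates of cells were prepared for each replicate, whereas the labels do not say which libraries were separate cultures, so a p-value here measures the spread between these libraries, which may be technical. In all, 9 tests were made, and adjusted p-values are Benjamini-Hochberg values over them.

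The first question was how much of each library fell on these contigs. IGF2BP1 had the lowest shares, 1.86% and 1.76% of its clusters. IGF2BP2 had 3.67% and 2.91%, IGF2BP3 had 1.89% and 2.11%, and IGF2BP3 bio2 had 3.48% and 3.71%. METTL1 had 4.40% and 3.62% and WDR4 had 2.79% and 2.74%. The groups overlapped: IGF2BP2 and IGF2BP3 bio2 lay within the range of METTL1 and WDR4, while IGF2BP1 and the other IGF2BP3 libraries lay below it. The 8 IGF2BP libraries averaged 2.67% ± 0.862 (SD) and the 4 METTL1 and WDR4 libraries 3.39% ± 0.788 (SD), a difference within the scatter of the libraries (exact permutation test of the means, two-sided here and in what follows, p = 0.210, adjusted p = 0.318). Without METTL1 replicate 1, the highest library, the difference was -0.374 points against -0.712 with it (exact permutation p = 0.539). The contigs with ribosomal DNA made up 81.9% to 98.7% of a library's contig clusters and most of this share (2.43% ± 0.914 against 3.14% ± 0.771 of all clusters, SD, n = 8 and 4, exact permutation p = 0.212, adjusted p = 0.318). This second difference was -0.385 points without METTL1 replicate 1 (exact permutation p = 0.545) and -1.08 points without bio2 (exact permutation p = 0.0524). Among clusters at or above the median width the 2 differences were -0.0160 and -0.0638 points.

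**Figure D1:**
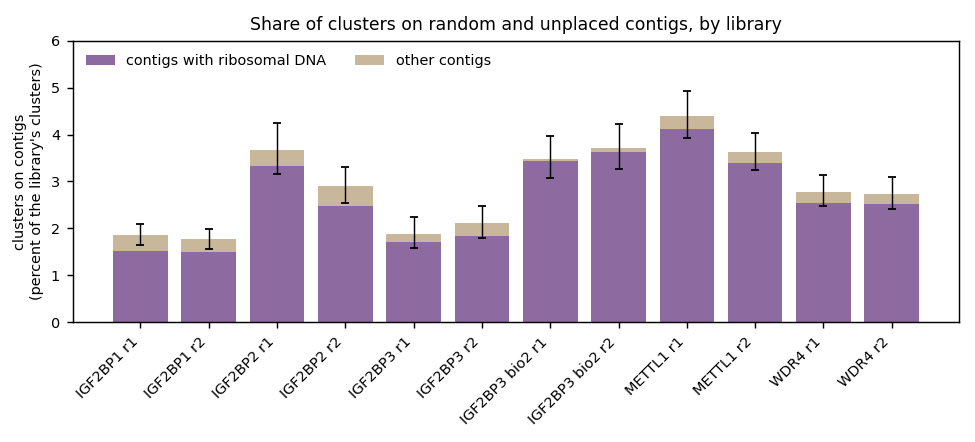
Percent of each library's clusters that lie on random and unplaced contigs, split into contigs with ribosomal DNA and other contigs; error bars are 95% Wilson intervals of the total and cover counting error only. The totals run from 1.76% in IGF2BP1 replicate 2 to 4.40% in METTL1 replicate 1, and the ribosomal DNA contigs make up most of every bar.

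Strand was the same throughout the unit. All 2489 clusters on the 4 unit copies lay on the strand of the rRNA, which is the plus strand, and 0 lay on the opposite strand in any library. Of the clusters outside these contigs, 52.6% to 55.9% lay on the plus strand. That share counts the strand of the genome and not the sense of a gene, so it is an unlike measure. The 4 copies were hit about alike, as 25 to 81 clusters of a library fell on one copy. Between 87.6% and 98.6% of the unit clusters of a library overlapped a cluster of the same library on another contig copy, and 19.0% to 38.6% had the same start and end there. Chromosome 21 copies of the unit, which are not part of this set, held another 2432 clusters. The 20-nt centres of unit clusters occurred at a median of 8 places in hg38 in every library, so a cluster on one copy cannot be assigned to that repeat alone.

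The clusters fell mainly in the mature rRNAs in all libraries, and more so for the IGF2BP proteins. IGF2BP1 had 82.8% and 88.1% of its clusters on the unit and between the units with their midpoints in 18S, 5.8S or 28S. IGF2BP2 had 85.6% and 82.7%, IGF2BP3 had 97.3% and 96%, and IGF2BP3 bio2 had 96.8% and 97.2%. METTL1 had 75.3% and 72.8% and WDR4 had 66.8% and 73.5%. The groups did not overlap: the lowest IGF2BP library stood at 82.7% and the highest METTL1 or WDR4 library at 75.3%. IGF2BP averaged 90.8% ± 6.64 (SD, n = 8) and METTL1 with WDR4 72.1% ± 3.67 (SD, n = 4), 18.7 percentage points apart (exact permutation p = 0.00202, the smallest these libraries can give, adjusted p = 0.0176). Leaving out bio2 the difference was 16.7 points (exact permutation p = 0.00476). Between the 4 IGF2BP1 and IGF2BP2 libraries and the 4 METTL1 and WDR4 libraries it was 12.7 points (exact permutation p = 0.0286). That comparison was chosen after seeing the data, and its p is the smallest that these 8 libraries can give. With each protein as 1 unit, 3 against 2, the difference was 16.7 points and p = 0.1, the smallest that an exact test of 5 proteins allows.

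Within the IGF2BP family the spacers set IGF2BP3 apart, while IGF2BP1 and IGF2BP2 overlapped. The 4 IGF2BP3 libraries had 3 to 7 clusters each in the transcribed spacers, against 28 and 38 for IGF2BP1 and 22 and 32 for IGF2BP2. METTL1 had 66 and 78 and WDR4 had 79 and 59. No test was planned between the family members, and these counts stand as a description.

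**Figure D2:**
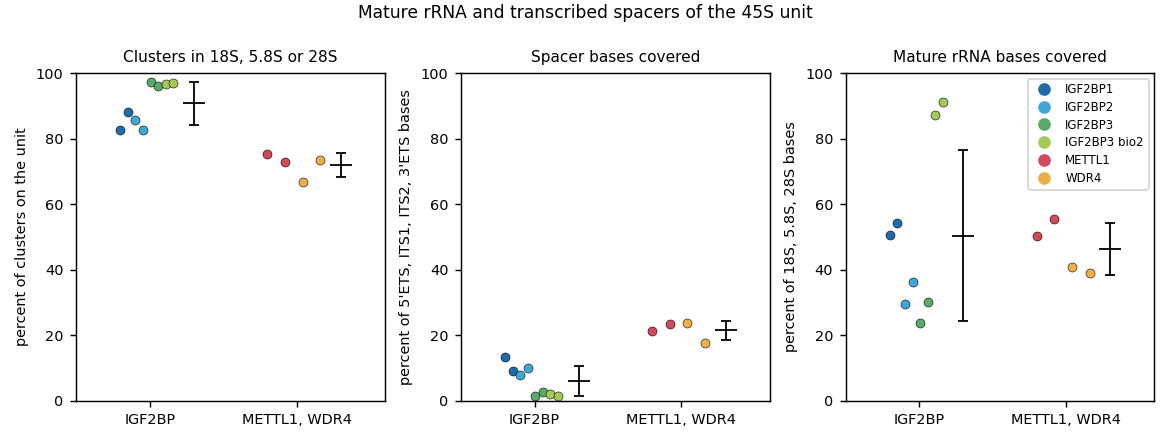
Left, percent of clusters on the unit and between the units whose midpoint lies in 18S, 5.8S or 28S; middle, percent of the spacer bases of the unit under a cluster; right, percent of the mature rRNA bases under a cluster; each point is a library and bars show the mean and SD of 8 IGF2BP and 4 METTL1 and WDR4 libraries. The 2 groups do not overlap in the left and middle plots, and the IGF2BP3 bio2 libraries lie far above the other libraries in the right plot.

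The 5'ETS, the long leader of the precursor, held most spacer clusters. It held 31 and 24 clusters of IGF2BP1, 19 and 25 of IGF2BP2, 3 and 5 of IGF2BP3 and 7 and 6 of IGF2BP3 bio2. METTL1 had 46 and 62 and WDR4 had 63 and 46, so that the lowest of these was above the highest IGF2BP library. ITS2, between 5.8S and 28S, held 7 and 4 clusters of IGF2BP1, 2 and 6 of IGF2BP2, 16 and 11 of METTL1 and 12 and 9 of WDR4, and 0 in all 4 IGF2BP3 libraries. ITS1, between 18S and 5.8S, was thinly hit, with 0 or 1 clusters in each IGF2BP library, 2 and 5 for METTL1 and 4 and 4 for WDR4. In the 3'ETS, METTL1 replicate 1 had 2 clusters and the other 11 libraries had 0. Only 2 of the 4 copies reach the 3'ETS, so its counts are not comparable with those of the other parts.

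Counted in bases, which takes away the repeats of one site on several copies, the spacers gave the same order. Clusters covered 13.4% and 9.14% of the 6261 spacer bases in IGF2BP1, 8.02% and 10.1% in IGF2BP2, 1.49% and 2.52% in IGF2BP3 and 2.16% and 1.53% in IGF2BP3 bio2. They covered 21.2% and 23.4% in METTL1 and 23.9% and 17.6% in WDR4. The highest IGF2BP library stood below the lowest METTL1 or WDR4 library, and no test of this measure was planned.

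Along the 5'ETS the cover was uneven. In the first 500 nt, clusters covered no base in the IGF2BP1, IGF2BP2 and IGF2BP3 libraries without bio2, 10.0% in each bio2 library and 0 to 18.2% in METTL1 and WDR4. Between 2001 and 2500 nt, METTL1 and WDR4 covered 37.2% to 48.6%, IGF2BP1 and IGF2BP2 7% to 32% and all IGF2BP3 libraries 0%. The last 154 nt before 18S were covered to 42.2% to 59.1% by METTL1 and WDR4, to 37.0% to 61.7% by IGF2BP1 and IGF2BP2, to 30.5% and 37.0% by IGF2BP3 and to 0% by IGF2BP3 bio2. The ranges of METTL1 with WDR4 and IGF2BP1 with IGF2BP2 did not overlap between 1001 and 1500 nt (9.40% to 16.2% against 0% to 5.60%) or between 2001 and 2500 nt, and overlapped in the other windows after the first 500 nt, the one next to 18S included.

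**Figure D3:**
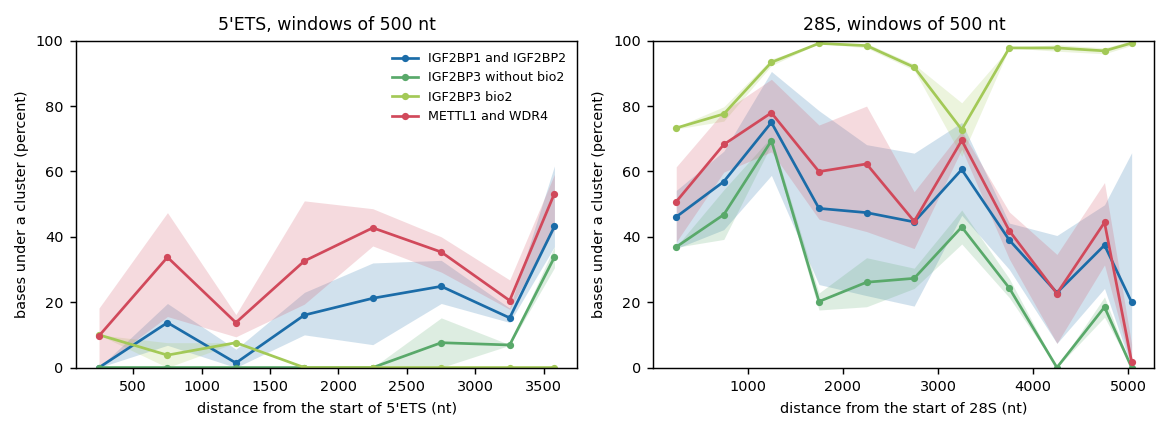
Percent of bases under a cluster in windows of 500 nt (the last one shorter) along the 5'ETS and the 28S rRNA, against the distance from the start of each; lines are means of 4 IGF2BP1 and IGF2BP2, 2 IGF2BP3, 2 IGF2BP3 bio2 and 4 METTL1 and WDR4 libraries, and bands span the lowest to the highest library. METTL1 and WDR4 have the highest mean in every 5'ETS window after the first, though their band overlaps that of IGF2BP1 and IGF2BP2 in most of them. IGF2BP3 bio2 has the highest mean in every 28S window.

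Across libraries the spacer sites of METTL1 and WDR4 recurred. All 4 libraries covered 17 intervals of the spacers, 707 bases in all, of which 14 lay in the 5'ETS, 1 in ITS1 and 2 in ITS2. IGF2BP2 had a cluster in at least 1 library at 14 of the 17, IGF2BP1 at 10, IGF2BP3 at 3 and the bio2 libraries at none. Only 3 of the 17, those printed above, met no IGF2BP cluster at any base. They were 22 nt (chrUn_GL000220v1:106641-106662), 29 nt (107117 to 107145) and 12 nt long (107858 to 107869). Base by base, 2896 positions of the unit were covered in all 4 METTL1 and WDR4 libraries, and 74 of these in no IGF2BP library. The other way around the count was 0. With 8 libraries on one side and 4 on the other, this second count is the harder one to reach. In the spacers it could only be 0, since no spacer base was covered in all 4 IGF2BP3 libraries. The 2 counts therefore cannot be set against each other.

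The 4 IGF2BP3 libraries shared no spacer base. Their spacer clusters formed 6 intervals, all in the 5'ETS: 3 came from the bio2 libraries alone and 3 from the other IGF2BP3 libraries alone. The 3 of the latter, at 2666 to 2741, 3394 to 3428 and 3518 to 3574 nt of the transcript, each met clusters in all 8 libraries of the other proteins. Of the 3 bio2 intervals, those at 423 to 472 and 1397 to 1434 nt lay in both bio2 libraries and in no library of another protein.

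Beyond the transcript, 7 clusters lay between the unit copies or past the last one, and all 7 were in METTL1 (1 and 1) or WDR4 libraries (3 and 2). All 7 lay on the plus strand. Of these, 3 crossed the annotated 3' end of the 45S transcript, among them both METTL1 clusters. The other 4, all from WDR4 libraries, were listed 695 to 15753 nt downstream of that end, at positions in the intergenic spacer. The central bases of these 4 occurred at 208, 89, 4185 and 126 places in hg38, so the clusters cannot be assigned to the intergenic spacer.

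In the mature rRNAs the 2 groups of libraries covered similar parts, with a large spread. Clusters lay over 50.5% and 54.3% of the 7096 mature bases in IGF2BP1, 29.6% and 36.3% in IGF2BP2, 23.8% and 30.1% in IGF2BP3 and 87.2% and 91.4% in IGF2BP3 bio2. METTL1 covered 50.3% and 55.4% and WDR4 40.7% and 39.0%. The bio2 libraries were thus the highest of all 12 and the other IGF2BP3 libraries among the lowest. The difference between the group means was 4.04 percentage points (exact permutation p = 0.802, adjusted p = 1), and it turned to -8.91 points without the bio2 libraries (exact permutation p = 0.210). Cover depends on depth, which is unknown here.

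28S, the largest rRNA, took the most clusters in every library, from 54.5% to 80.2% of those on the unit. By length, 28S makes up 5070 of the 13357 nt of the unit and 5070 of the 7096 mature bases. Whether its share of clusters departs from its share of the length was not tested. Of the mature rRNA clusters alone, 28S held 76.0% and 78.3% in IGF2BP1, 79.4% and 74.5% in IGF2BP2, 82.4% and 78.3% in IGF2BP3 and 70.3% and 68.0% in IGF2BP3 bio2. METTL1 had 80.9% and 77.3% and WDR4 80.6% and 79.3%. The bio2 libraries were the lowest and the rest overlapped. The mean was 75.9% ± 4.81 (SD, n = 8) for IGF2BP and 79.5% ± 1.66 (SD, n = 4) for METTL1 and WDR4, a difference of -3.61 points (exact permutation p = 0.182, adjusted p = 0.318). Without bio2 it was -1.36 points (exact permutation p = 0.405).

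On average, IGF2BP1 with IGF2BP2 and METTL1 with WDR4 covered 28S most densely between 1001 and 1500 nt and between 3001 and 3500 nt from its start. Between 1001 and 1500 nt, IGF2BP1 and IGF2BP2 covered 58.8% to 90.6% of the bases, IGF2BP3 68.2% and 70.6%, and METTL1 and WDR4 66.0% to 88.2%. Between 4001 and 4500 nt, the same libraries covered 7.40% to 40.4%, 0% in both IGF2BP3 libraries, and 7.40% to 34.6%. In this window the bio2 libraries reached 96.8% and 98.8%.

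The bio2 cover of rRNA ran in longer unbroken stretches than that of the other libraries. It ran without a break over all 157 nt of 5.8S in both libraries, with gaps from base 57 or 63 to base 1829 or 1836 of the 1869 nt of 18S, and with gaps from base 131 or 132 to base 5069 or 5070 of the 5070 nt of 28S. Inside 18S the longest unbroken stretches were 576 and 1001 nt, and inside 28S 746 and 725 nt. In the other 10 libraries the longest stretch was 51 to 134 nt in 18S and 122 to 286 nt in 28S. All 10 of them had clusters in the first base of 28S, which the bio2 libraries left uncovered up to base 130 at least.

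**Figure D4:**
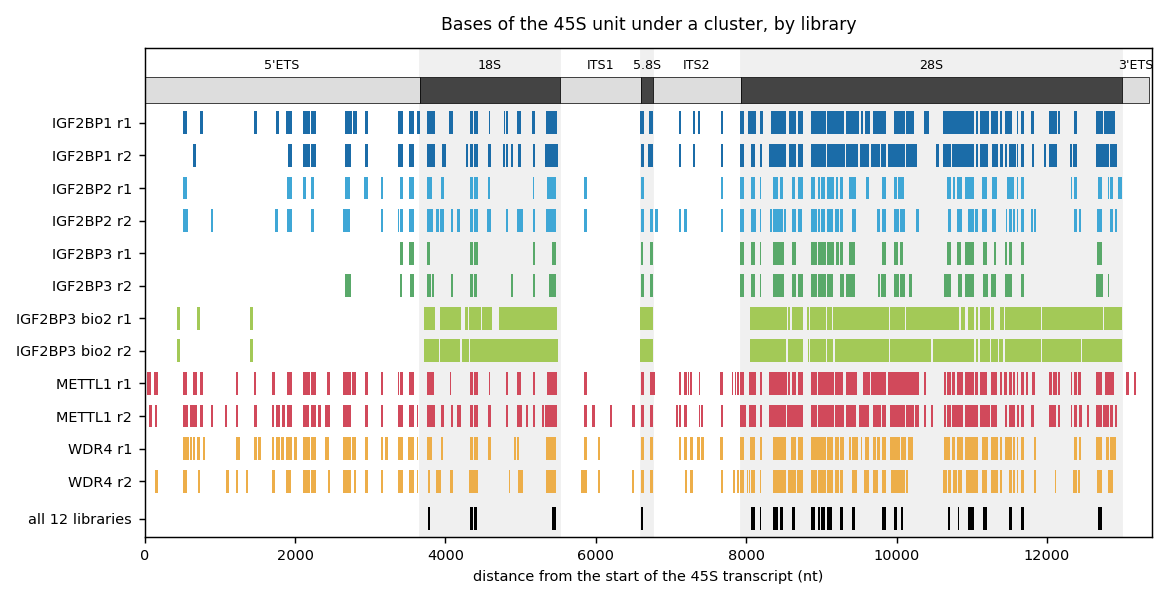
Bases of the 45S unit that lie under a cluster of any of the 4 contig copies, for each library (rows), against the distance from the start of the 45S transcript; dark boxes at the top are the mature rRNAs, light boxes the spacers, and the lowest row marks bases covered in all 12 libraries. The lowest row has 27 intervals, all in 18S, 5.8S or 28S, and the IGF2BP3 bio2 rows have the most cover within these, 87.2% and 91.4% of the mature bases, and 2.16% and 1.53% of the spacer bases.

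Of the 27 intervals that all 12 libraries covered, 22 lay in 28S, 4 in 18S and 1 in 5.8S, and 0 in the spacers. Without bio2, the other 10 libraries shared 30 intervals and 1351 bases, and 2 of these intervals lay in the spacers. The 27 intervals of all 12 libraries took up 19.2% of 28S, 9.15% of 18S and 19.7% of 5.8S. The longest was the 82-nt pyrimidine-rich stretch at chrUn_GL000220v1:116369-116450, 3022 to 3103 nt into 28S, with 15 T in it, and 48 clusters overlapped it. The 5.8S interval, 3 to 33 nt into that molecule, was overlapped by 47 clusters. The base before each of the 27 intervals was G, after which RNase T1 cuts, and each held at least 1 T, which a T-to-C change needs. Their T share was 14.9%, against 16.8% over the mature rRNAs and 14.0% over the spacers.

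Merged over libraries, the unit clusters formed 69 sites. Of these, 12 were met by all 12 libraries, and they were all among the 20 in mature rRNA. The largest of these joined sites ran over 1427 nt of 28S (1136 to 2562 nt into it) with 479 clusters and over 1181 nt of 18S (660 to 1840 nt into it) with 295 clusters. Next came 28S at 4005 to 5070 nt with 173 clusters, 2565 to 3159 nt with 210, 245 to 830 nt with 211, 3509 to 4000 nt with 182 and 919 to 1134 nt with 121. The end of 28S, past base 12407 of the transcript, lies on only 2 of the 4 copies, which lowers the first of these counts. The site over 5.8S spanned 195 nt, into both neighbouring spacers, with 75 clusters. Of the 49 spacer sites, none was met by all libraries and 12 came from a single library. In the spacers, 25 sites were met by no IGF2BP library, 4 by no METTL1 or WDR4 library and 43 by no IGF2BP3 library. Of the 20 sites in mature rRNA these counts were 1, 2 and 1, and 1 came from a single library. No cluster of any library covered 1963 of the 3654 nt of the 5'ETS, 871 of the 1077 nt of ITS1 and 699 of the 1167 nt of ITS2, whereas 99 nt of 18S and 161 nt of 28S were bare. Without bio2, 2051, 872 and 699 nt of these spacers were bare, and 875 of the 1869 nt of 18S and 1232 of the 5070 nt of 28S.

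The width of contig clusters was close to that of the rest of each library except in bio2. Median widths were 46 and 45 nt in IGF2BP1, 43 and 42 nt in IGF2BP2, 41.5 and 42 nt in IGF2BP3 and 71 and 74 nt in IGF2BP3 bio2. METTL1 had 41 nt in both libraries and WDR4 had 40 and 41 nt. All other clusters of the same libraries had medians of 38 to 43 nt, and of 34 nt in both bio2 libraries. Contig clusters were wider than the rest in 9 libraries and equal in 3, by 7.63 nt on average (two-sided exact sign-flip permutation test over the 12 libraries, p = 0.00391, adjusted p = 0.0176). Without bio2 the mean difference was 1.45 nt over 10 libraries (exact sign-flip permutation p = 0.0156). Between the groups, the mean of the medians was 50.6 nt ± 13.7 (SD, n = 8) for IGF2BP and 40.8 nt ± 0.5 (SD, n = 4) for METTL1 and WDR4 (exact permutation p = 0.0929, adjusted p = 0.279), and without bio2 the difference was 2.5 nt (exact permutation p = 0.0381).

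Wide clusters were mostly those of bio2. Of the unit clusters in these libraries, 31.9% and 32.1% were wider than 100 nt, against 0.654% to 7.23% in the other 10, and the widest reached 585 nt in both. Spacer clusters were narrower than mature rRNA clusters in METTL1 and WDR4, with medians of 35.5 to 39 nt against 42 to 45 nt. In bio2, the 7 and 6 spacer clusters had medians of 46 and 48 nt and the mature ones of 76 and 78.5 nt.

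In sequence, clusters on contigs with ribosomal DNA were rich in G and C and poor in T. T made up 14.7% to 17.98% of their bases, against 27.6% to 32.2% in the clusters outside the contigs, and G and C made up 64.2% to 74.98%. The trinucleotide CAT, searched on the clusters' own strand because CAU is the core of the known IGF2BP motif, occurred in 9.09% to 18.9% of these clusters, and in 35.1% and 39.9% in bio2, whose clusters are wider. Outside the contigs it occurred in 51.7% to 72.9% of the clusters of the IGF2BP libraries and in 39.6% to 42.0% of those of METTL1 and WDR4.

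Another contig, chrUn_KI270442v1, holds a diverged 18S stretch at 218454 to 220324 on the minus strand, with 91.1% identity to 18S. It had 20 clusters, all on the minus strand and thus in the sense of the rRNA, and 18 had their midpoints in this stretch. They came from IGF2BP3 bio2 (6 and 6), METTL1 (2 and 3) and WDR4 (2 and 1), and from no other library. The widths were 18 to 50 nt with a median of 25 nt. The site at 218609 to 218634 was met by both METTL1 and both bio2 libraries, and that at 219614 to 219638 by both METTL1 and both WDR4 libraries.

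The contigs with no ribosomal DNA had like mean shares of clusters in both groups. The share was 0.242% ± 0.132 (SD, n = 8) in IGF2BP, from 0.0465% to 0.428%, and 0.242% ± 0.0205 (SD, n = 4) in METTL1 and WDR4 (exact permutation p = 0.998, adjusted p = 1). The lowest values were again those of bio2, and without them IGF2BP was higher by 0.0598 points (exact permutation p = 0.257). For IGF2BP1 and IGF2BP2 alone, a comparison chosen after seeing the data, it was higher by 0.0986 points (exact permutation p = 0.0571).

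The contigs met by most libraries were chr14_GL000009v2_random with 53 clusters in 11 libraries, chrUn_GL000218v1 with 38 in 11, chr14_GL000194v1_random with 25 in 11, chr4_GL000008v2_random with 18 in 10 and chr1_KI270706v1_random with 33 in 9. After them came chrUn_KI270742v1 with 13 clusters in 9 libraries, chr3_GL000221v1_random with 9 in 8 and chrUn_GL000195v1 with 10 in 7. Of all 26 contigs, 4 were met by a single library. Most contigs were read on one strand: 52 of 53 clusters of chr14_GL000009v2_random lay on the plus strand, 36 of 38 of chrUn_GL000218v1, 29 of 33 of chr1_KI270706v1_random and all 25 of chr14_GL000194v1_random on the minus strand.

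**Figure D5:**
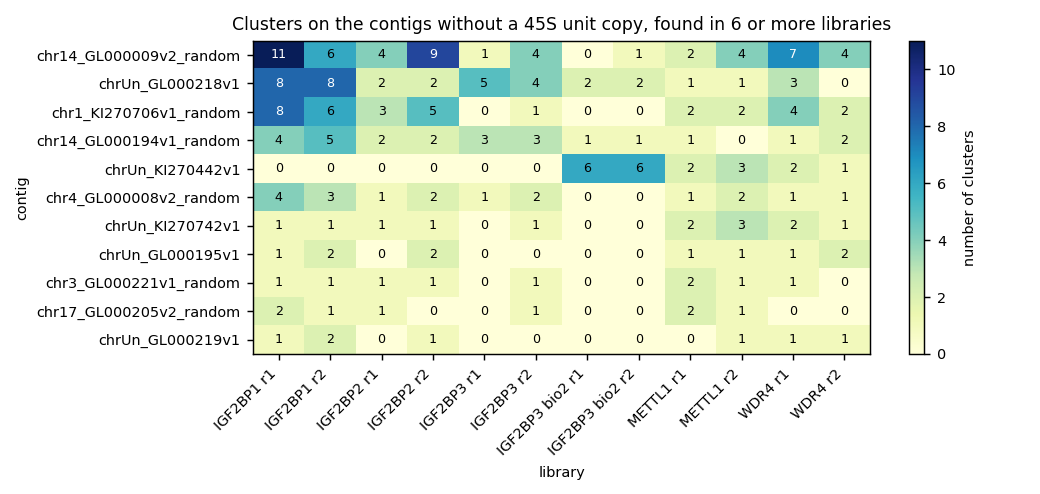
Number of clusters on each contig (rows) in each library (columns), for contigs without a copy of the 45S unit that were met by 6 or more libraries. chr14_GL000009v2_random has clusters in every library but IGF2BP3 bio2 replicate 1, and chrUn_KI270442v1 in the bio2, METTL1 and WDR4 libraries alone.

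With those of chrUn_KI270442v1, the clusters off the units formed 113 sites, of which 55 came from 1 library and 12 from 6 or more. An alignment of each site with 200 nt on either side to the assembled chromosomes found a match to 112 of the 113, with a median identity of 97.9% and of at least 95% for 95 sites. The matching place lay in an annotated gene on the same strand for 51 sites, in an exon for 13 of them. Matches were not unique. The sites named below had 3 to 103 placed matches each, and their central bases occurred at 4 to 84 places in hg38. A place or gene named for a site thus cannot be taken as the source of its clusters. Sites also matched each other: 44 of them fell into 16 sets of aligned copies.

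The set met by most libraries was a site present on 5 contigs, with 38 clusters in 10 libraries, that is, in all but the bio2 libraries. On chr14_GL000009v2_random it was met by 10 libraries, on chrUn_KI270742v1 by 9, on chr3_GL000221v1_random by 8, on chr4_GL000008v2_random by 7 and on chrUn_KI270743v1 by 4. Its closest placed match on 2 of the contigs was an exon of SNX18P12, a processed pseudogene of the sorting nexin SNX18 on chromosome 21, at identities of 99.8% and 99.1%. The sites are printed 5' to 3' on the clusters' strand in hg38, to show how alike the letters were on each contig, with the bases under clusters in capitals.
chr14_GL000009v2_random:60504-60559, plus strand: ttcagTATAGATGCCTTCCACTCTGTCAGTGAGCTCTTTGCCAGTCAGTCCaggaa
chrUn_KI270742v1:70139-70194, plus strand: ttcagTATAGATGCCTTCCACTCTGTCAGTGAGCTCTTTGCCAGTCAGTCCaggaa
chr3_GL000221v1_random:40190-40247, plus strand: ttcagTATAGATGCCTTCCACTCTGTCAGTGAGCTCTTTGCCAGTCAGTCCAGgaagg
chr4_GL000008v2_random:153023-153075, minus strand: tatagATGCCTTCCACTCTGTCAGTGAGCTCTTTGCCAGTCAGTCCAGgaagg
chrUn_KI270743v1:137910-137953, minus strand: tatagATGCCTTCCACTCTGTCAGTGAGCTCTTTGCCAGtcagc

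IGF2BP1 had 4 and 5 clusters in this set, IGF2BP2 4 and 5, IGF2BP3 1 and 4, METTL1 5 and 5 and WDR4 3 and 2. These are counts over copies, so 1 binding site could give up to 5 of them. The second set, on chr14_GL000009v2_random and chr1_KI270706v1_random (61249 to 61325, minus strand, met by 9 libraries), had 10 clusters in 9 libraries. The site on chr1_KI270706v1_random had 103 placed matches, the closest an unannotated stretch of chromosome 22 at 99.0% identity. The site on chr14_GL000009v2_random, with 1 cluster, had 25 placed matches, the closest on chromosome 20 at 96.3%.

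A set on chr14_GL000194v1_random and chrUn_GL000218v1 is named for its bio2 clusters, after its values were seen. It had 11 clusters in 7 libraries, 10 of them from IGF2BP1 (1 and 2), IGF2BP3 (2 and 2) and IGF2BP3 bio2 (1 and 2) and 1 from WDR4 replicate 1. Both places were identical to each other under the clusters, and their closest placed match was an exon of TEKT4P2, a pseudogene transcript of chromosome 21, at 99.5% and 99.8% identity.
chr14_GL000194v1_random:62066-62109, minus strand: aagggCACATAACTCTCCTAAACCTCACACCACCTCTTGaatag
chrUn_GL000218v1:47260-47303, minus strand: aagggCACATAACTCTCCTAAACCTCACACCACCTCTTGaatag

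The remaining sites met by most libraries were met by 7 each. Of these, 80077 to 80135 on the plus strand of chr14_GL000009v2_random matched chromosome 4 at 96.3% identity and, among exons of protein-coding genes, POTEM of the POTE ankyrin family at 90.9%. On the same contig and strand, 72433 to 72475 matched an unannotated stretch of chromosome 4 at 98.2%. On chrUn_GL000218v1, 80688 to 80740 on the minus strand was met by all 6 IGF2BP libraries without the bio2 label and by 1 WDR4 library, and matched an intron of TEKT4P2 at 99.1%.

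CAT stood in 62.5% to 100% of the clusters on contigs without ribosomal DNA in the IGF2BP libraries, where bio2 had only 3 and 5 such clusters, and in 40% to 57.1% in the METTL1 and WDR4 libraries. The same order of the groups stood in the clusters outside the contigs, at 51.7% to 72.9% and 39.6% to 42.0%, so it is not particular to these contigs. In CAT, and in their T share of 24.01% to 35.2%, clusters on contigs without ribosomal DNA were nearer to those outside the contigs than to those on ribosomal DNA.

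Contig clusters were shared between libraries more often than other clusters. Over 10 pairs made with the same protein, on average 69.1% of the contig clusters were shared (an overlap of at least 1 nt on the same strand, counted over the clusters of both), and over 56 pairs of different proteins 62.8% were. For all other clusters these values were 46.2% and 26.0%. The METTL1 libraries shared 78.5% of their contig clusters and 24.1% of the others, and the WDR4 libraries 67.6% and 26.6%. METTL1 and WDR4 libraries shared 70.04% on average over 4 pairs, and IGF2BP libraries with METTL1 or WDR4 ones 61.7% over 32 pairs. IGF2BP3 libraries shared 85.3% within a bio label and 56.2% across. On the contigs the bio2 libraries thus overlapped the other IGF2BP3 libraries less than METTL1 overlapped WDR4. For all other clusters the order was reversed, with 36.2% across bio labels and 21.1% between METTL1 and WDR4. No test was made of these shares, since pairs share libraries and dense cover raises overlap by itself.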

How the data were processed

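PAR-CLIP clusters of 12 HepG2 libraries were used as deposited. By their methods, the authors trimmed reads and collapsed duplicates with the FASTX toolkit, mapped them with bowtie (3 mismatches, at most 10 locations, best stratum kept) and called clusters with PARalyzer. Versions and PARalyzer settings are not given in the sources used here. The submitters' processing notes name Bowtie and hg38. The deposited values are of another kind than a count: start and end positions with strand, and no score, so depth is unknown. A read from any of the 9 copies of the 45S unit can map to several of them, and one with over 10 locations was dropped, which can repeat or thin clusters here.

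Starts were read as counted from 1: the base before a member was G in 84.9% to 97.2% of a library's members and the first base in 6.30% to 17.1%. Copies of RNA45SN5 (RefSeq, GRCh38.p14) were found with blastn 2.17.0 at 95% identity or more over 1000 nt or more, and clusters were placed by their midpoints. Gene names of matching chromosome sites are from GENCODE release 44. Per-library values of 8 IGF2BP and 4 METTL1 and WDR4 libraries were set against each other by exact permutation (two-sided, threshold 0.05), with code tested on simulated data. Replicate numbers were not taken as pairs, since correlations of same-numbered libraries ran from -0.0889 to 0.0653. Contigs met by 6 or more libraries (at most 10) and the sites met by most (at most 8 each on and off the unit) were named. Members and lists were chosen with earlier results of these data known. Alternatives left out libraries and varied copies, assignment, denominators and width.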

Additional observations from a re-analysis of the deposited data

Results flagged for a closer look

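Of 27 checks for a library far from the rest of its group, 2 stood out, and about 1 in 20 independent checks would by chance. The 27 were not independent, since the IGF2BP3 checks reused libraries of the IGF2BP checks. Those of the antisense share, which was 0 in every library, could not stand out. METTL1 replicate 1 had 0.272% of its clusters on contigs without ribosomal DNA, above the other METTL1 and WDR4 libraries (its gap to the next was 0.832 of the range). WDR4 replicate 1 had a median contig cluster width of 40 nt where the other METTL1 and WDR4 libraries had 41 nt, a difference of a single nucleotide in whole-number widths.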

How the results depend on the processing

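Of 176 alternative values, 158 were called the same, by direction and side of the threshold. The untested sharing between libraries was instead called by its move against the SD of the pairs. Among the 158 are the values of the antisense share, which was 0 in every setting and so kept its call throughout. With proteins as units, the mature rRNA difference was 16.7 points at p = 0.1, the smallest that this exact test allows. The median width difference passed the unadjusted threshold at 2.5 nt without the bio2 libraries and at 3.25 nt for IGF2BP1 and IGF2BP2 alone, a comparison chosen after seeing the data. Directions turned only for differences that did not pass the test. The contig and ribosomal DNA shares became 0.389 and 0.376 points when bases replaced clusters, and the other-contig share -0.0139 points with identical sequences counted once. The mature cover difference became -8.91 points without bio2 and -3.66 points for IGF2BP1 and IGF2BP2 alone. Leaving out each library in turn gave -0.928 to -0.374 points for the contig share, -0.924 to -0.385 points for the ribosomal DNA share (both smallest without METTL1 replicate 1), -0.0259 to 0.0286 points for the other-contig share, -1.81 to 7.85 points for mature cover (turned without either bio2 library) and 17.0 to 19.9 points for the mature rRNA share. With the replicate number as a block, the mature rRNA difference of 18.7 points had an exact permutation p = 0.00444, and the block changed no other call. With the copies merged on 1 unit it was 22.96 points, with the chromosome 21 copies 18.8 points and on the first copy alone, added after seeing the data, 16.4 points. Depth is unknown, so low cover does not show that a base is unbound.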
